A study of Mus musculus with 8 samples.

Results

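The genes of NAD (nicotinamide adenine dinucleotide) use and synthesis described here are the 10 genes Cd38, Sirt1, Sirt3, Sirt5, Sirt6, Sirt7, Nampt, Nmnat2, Parp1 and Sarm1, taken by gene name from the 13996 genes of the FPKM table. FPKM is a fragment count scaled by transcript length and by the reads mapped in the library. For 9 genes the name matched. Nampt was found by its Ensembl identifier ENSMUSG00000020572.8, because its row is spelled Mampt. All 10 passed the filter on low values (a mean of at least 1 FPKM over the mice, with none at 0), as did 13982 genes in all.

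NAD is a redox coenzyme that several enzymes also consume as a substrate. In the brain it is rebuilt mainly by the salvage route, in which nicotinamide phosphoribosyltransferase (Nampt) makes nicotinamide mononucleotide and the Nmnat enzymes turn that into NAD. The main consumers are the glycohydrolase Cd38, which also forms the calcium messenger cyclic ADP-ribose, the sirtuin deacylases, the poly(ADP-ribose) polymerases such as Parp1, and Sarm1, the NAD-cleaving executor of axon degeneration.

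The cortex of male C57BL/6 mice was sequenced as rRNA-depleted total RNA, 1 library per mouse. From 8 weeks of age, 4 mice (normal) were kept on a conventional diet and 4 mice (high fat diet, HFD) on a diet with 60% fat by weight. Both groups were sampled after 8 weeks, at 16 weeks of age. The diets were compared on log2(FPKM + 0.1) with limma, two-sided, and a gene was called changed when its p, adjusted over all 13982 genes by Benjamini-Hochberg, was below 0.05. Fold changes are on that scale, HFD minus normal, and understate the change of genes with low expression. Coordinates are on GRCm38. The labels used here give neither cages nor litters.

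Several marker lists of brain regions and cell types also differed between the diets. Among all genes tested, for comparison with their counts, 17.7% were called higher and 15.3% lower. The 7 cortical neuron markers (Slc17a7, Tbr1 and others) were present in each mouse, with a summed level of 272 to 415 FPKM in normal mice and 454 to 536 in HFD mice, and 5 of 7 were called higher. The 7 cerebellar markers summed to 17, 198, 275 and 62.9 FPKM in normal mice 1 to 4, and to 12.7 to 16.2 in HFD mice, where Gabra6 was listed at 0 in mouse 1, and 4 of the 6 that could be tested were lower. The 7 striatal markers summed to 193 to 363 FPKM in normal and to 54.9 to 64.1 in HFD mice, and 7 of 7 were lower. The 8 oligodendrocyte markers summed to 2149 to 3539 FPKM and to 1485 to 2048, also with 8 of 8 lower. The sums over microglia markers overlapped between diets, at 152 to 186 and 155 to 170 FPKM. The neuronal, cerebellar, striatal and oligodendrocyte markers move with diet, and their part in the results below was not tested beyond the values given. In whole tissue, fewer cells of a type and less RNA per cell cannot be told apart.

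Of the 10 genes, 3 were lower in HFD mice (Cd38, Nampt and Parp1), 3 were higher (Nmnat2, Sarm1 and Sirt3) and 4 did not pass the test (Sirt1, Sirt5, Sirt6 and Sirt7). Among all genes tested, 15.3% were called lower, 17.7% higher and 33.1% in either direction. Of the 10, only Cd38 changed by more than 1.5 times. It was lower, as were 2.9% of all genes by that measure, while 4.23% were higher and 7.13% changed in either direction. Cd38 met the filter on low values through the normal mice only, which favours finding such a gene lower in HFD mice. The FPKM values of the diets did not overlap for 6 of the 10, against 31.9% of all genes. Cd38, Nampt and Parp1 lay wholly lower (14.7% of all genes) and Nmnat2, Sirt3 and Sirt6 wholly higher (17.2%). The median log2 fold change was -0.05 over the 10 genes and 0.00 over all genes. With the mean log2 level of the cerebellar, oligodendrocyte or cortical neuron markers as a covariate, 0 of the 10 passed limma's adjusted threshold, and 3, 1 and 3 of them had an unadjusted p below 0.05. Among all 13982 genes, 3203, 1932 and 3199 had an unadjusted p below 0.05 with the same covariates. In these fits the log2 fold change was -0.26, -0.33 and -0.22 for Nampt and 0.23, 0.17 and 0.20 for Nmnat2. With the cerebellar and the oligodendrocyte markers it was -0.34 and -0.89 for Cd38 and 0.10 and 0.17 for Sirt3. For Parp1 it was -0.19 and -0.18, and for Sarm1 0.27 and 0.23. The striatal markers were not used as a covariate.

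**Figure D1:**
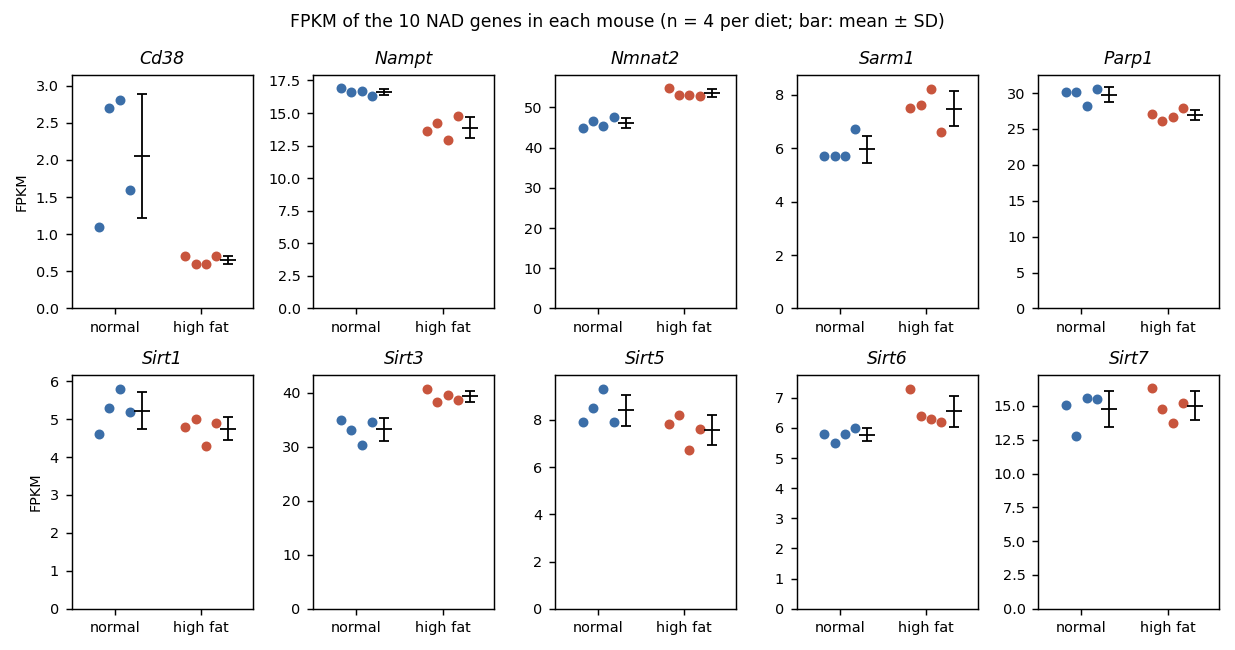
FPKM (vertical axes, from 0) of the 10 genes in each mouse, with 4 normal mice in blue and 4 HFD mice in red, and the mean ± SD as black bars. Cd38 spreads widely in normal mice (1.1 to 2.8) and sits at 0.6 to 0.7 in HFD mice, while Nampt and Nmnat2 form tight, separate groups.

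The genes spanned a wide range of levels. In normal mice Nmnat2 had the highest mean (46.1 FPKM), followed by Sirt3 (33.2), Parp1 (29.8), Nampt (16.6), Sirt7 (14.8), Sirt5 (8.40), Sarm1 (5.95), Sirt6 (5.78), Sirt1 (5.22) and Cd38 (2.05). Neighbours in this order overlapped in their mice for Sirt3 and Parp1, Sarm1 and Sirt6, and Sirt6 and Sirt1, and were separate elsewhere. In HFD mice Sirt7 (15.0) stood above Nampt (13.9), and the overlapping neighbours were Sirt7 and Nampt, Sirt5 and Sarm1, and Sarm1 and Sirt6. Sirt3 (39.3) and Parp1 (27.0) no longer overlapped there. FPKM is scaled by transcript length, so these levels can be set side by side.

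Cd38 (ENSMUSG00000029084.5), whose 8 merged exons span 43868553 to 43912375 on the plus strand of chromosome 5 (GRCm38), had the lowest level and the largest change of the 10. Its FPKM was 1.1, 2.7, 2.8 and 1.6 in normal mice 1 to 4, and 0.7, 0.6, 0.6 and 0.7 in HFD mice 1 to 4. The HFD mean (0.65) was below the filter's 1 FPKM, so Cd38 was tested because of the normal mice (mean 2.05). Every HFD mouse was below every normal mouse, and the normal mice were spread over more than the distance between the lowest of them and the other diet. The log2 fold change was -1.43 (SE 0.28, 95% interval -2.05 to -0.81), and limma's adjusted p was 0.00476. Values are rounded to 0.1 FPKM, which is coarse at this level, and the size of the change depends on the constant added before the logarithm. It was -1.09 with a constant of 0.5 and -0.84 with 1, and passed with both.

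Normal mice 2 and 3, with the most Cd38, also had the highest sums of cerebellar markers (198 and 275 FPKM) and of thalamic markers (149 and 152 FPKM, against 31.6 to 63.9 in the other mice). Calb2 alone gave 71.2 and 83.1 FPKM of these thalamic sums. Of the 5 thalamic markers 2 were called lower, against 15.3% of all genes. Without normal mice 2 and 3, in a comparison of 2 with 4 mice chosen after seeing the data, the log2 fold change of Cd38 was -0.93 (SE 0.23, limma's adjusted p = 0.0285). With the mean log2 level of the cerebellar markers as a covariate it was -0.34 (SE 0.25, limma's adjusted p = 0.466). With the oligodendrocyte markers it was -0.89 (SE 0.58, limma's adjusted p = 0.533), and with the cortical neuron markers -0.48 (SE 0.29, limma's adjusted p = 0.369). These lists differ between the diets themselves, so a covariate also takes up part of the diet term and widens its error.

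Over the 8 mice, the genes whose centred log2 levels lay closest to Cd38 were St18, Tll1, Cnksr3, Ebf1 and Aldh1a1. Their root mean square differences from it were 0.14, 0.221, 0.225, 0.228 and 0.228 on the log2 scale, where the median over 13981 genes was 0.822. St18, a zinc finger transcription factor, was at 3.0, 8.3, 9.7 and 4.2 FPKM in normal mice and at 1.8 to 2.1 in HFD mice. Aldh1a1, a retinaldehyde dehydrogenase, was at 30.4, 56.8, 54.9 and 27.2 FPKM and at 11.6 to 13.3. All 5 were highest in normal mice 2 and 3, as Cd38 was, which follows from their choice by likeness to Cd38 in these same mice. This likeness includes the difference between diets and is a description.

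**Figure D2:**
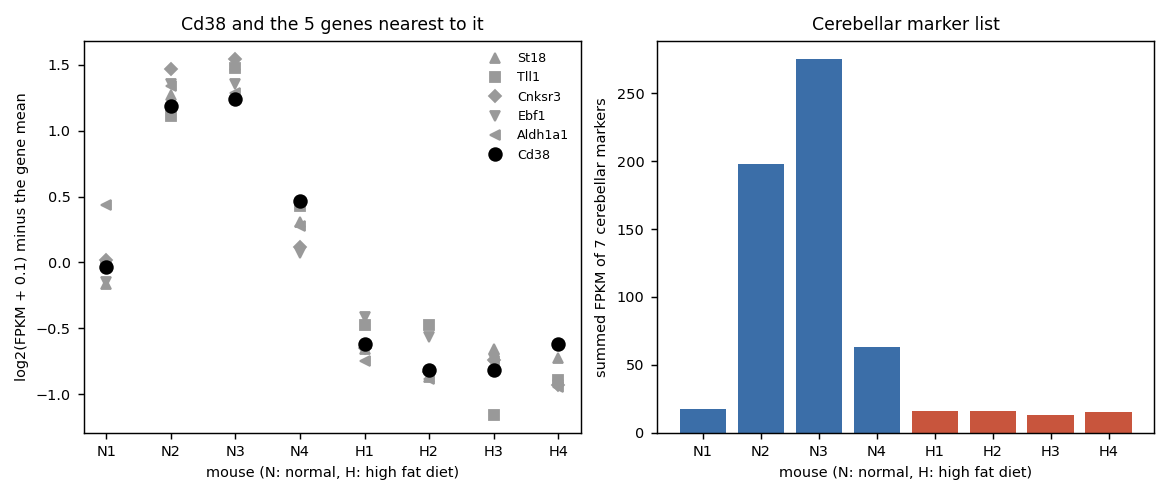
Left, log2(FPKM + 0.1) minus the mean of each gene (vertical axis) by mouse, for Cd38 in black and the 5 nearest genes in grey. These 5 were picked for their likeness to Cd38 in the same mice. Right, the summed FPKM of 7 cerebellar markers in the same mice, with normal mice in blue and HFD mice in red; normal mice 2 and 3 are highest in both panels, at 198 and 275 FPKM on the right.

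Cd38 belongs to a small set of enzymes that act on NAD and nucleotides at the cell surface. Of 4 other such genes listed, Nt5e, Enpp1 and Art3 could be tested. Nt5e, the ectonucleotidase that makes adenosine from AMP and can dephosphorylate nicotinamide mononucleotide, was at 2.5, 2.4, 2.7 and 2.2 FPKM in normal mice and at 1.1, 1.2, 1.1 and 1.2 in HFD mice. The groups did not overlap, and unlike Cd38 the normal mice lay close together. Its log2 fold change was -1.03 (SE 0.11, limma's adjusted p = 0.000695), and -0.97 without normal mice 2 and 3. The striatal markers, whose sums did not overlap between the diets either, were lowest among normal mice in mouse 4 (193 FPKM), as Nt5e was. The other normal mice did not follow the same order. The striatal sum was highest in mouse 1 (363 FPKM), and Nt5e was highest in mouse 3, where that sum was 285 FPKM. Oligodendrocyte, choroid plexus and blood sums were also lowest in normal mouse 4. The part of the striatal markers in the Nt5e difference was not tested. Enpp1 (log2 fold change -0.48) and Art3 (-0.23) did not pass.

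Cyclic ADP-ribose, the product of Cd38, promotes calcium release through ryanodine receptors, and ADP-ribose opens the channel Trpm2. The ryanodine receptor genes did not move together. Ryr1 was lower (2.18 ± 0.206 FPKM in normal and 1.32 ± 0.0957 in HFD mice, SD, n = 4). Ryr2 was higher, at 30.5, 25.9, 27.6 and 33.3 FPKM in normal mice and 36.6, 39.0, 40.6 and 38.1 in HFD mice. Its diets did not overlap, and the log2 fold change was 0.40 (SE 0.08, limma's adjusted p = 0.0045), against -0.67 for Ryr1 (SE 0.12, limma's adjusted p = 0.00335). Within the normal diet, Ryr2 was lowest in mice 2 and 3, and without them its log2 fold change was 0.27. Ryr3 (-0.05, 95% interval -0.25 to 0.15) and Trpm2 (0.20, 0.02 to 0.37) did not pass the adjusted threshold. Per transcript length, Ryr2 was the most abundant of the ryanodine receptor genes on either diet.

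Nampt, the rate-limiting enzyme of the salvage route (chromosome 12, 32819545 to 32853349, plus strand, 13 merged exons), was lower in HFD mice. Its FPKM was 16.9, 16.6, 16.7 and 16.3 in normal mice and 13.6, 14.2, 12.9 and 14.8 in HFD mice. The normal mice lay close together, and every HFD mouse was below them. The mean fell from 16.6 ± 0.250 to 13.9 ± 0.814 (SD, n = 4), a log2 fold change of -0.26 (SE 0.05, 95% interval -0.38 to -0.14, limma's adjusted p = 0.0057). Dropping any single mouse gave values from -0.29 to -0.23, and it was -0.26 without normal mice 2 and 3.

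Nampt is also known as an output of the circadian clock, since the CLOCK-BMAL1 dimer drives its promoter through E-boxes. The 8 clock genes of the PER phase (Dbp, Per2, Nr1d1 and others) summed to 153 to 178 FPKM in normal mice and to 238 to 248 in HFD mice. Of these, 7 of 8 were called higher, against 17.7% of all genes (15.3% were lower). Of the 4 genes of the BMAL1 phase, Arntl and Cry1 were called lower and Npas2 higher, and their sums overlapped (54.2 to 58.8 and 54.9 to 58.3 FPKM). The part of the clock in the level of Nampt was not tested.

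Nmnat2, the NAD synthase that survives only briefly in axons and keeps them intact (chromosome 1, 152954993 to 153119261, plus strand), was higher in HFD mice. Its FPKM was 44.8, 46.7, 45.3 and 47.6 in normal mice and 54.9, 53.2, 53.2 and 52.8 in HFD mice. The gap between the diets exceeded the range within either. The log2 fold change was 0.22 (SE 0.04, 95% interval 0.13 to 0.30, limma's adjusted p = 0.00364), and it was 0.21 without normal mice 2 and 3. The mean rose by 16.1%, from 46.1 ± 1.28 to 53.5 ± 0.936 FPKM (SD, n = 4).

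Nmnat1, the nuclear enzyme of the same step, went the other way. It was at 5.2, 4.9, 4.3 and 4.7 FPKM in normal mice and at 3.8, 3.1, 3.0 and 3.1 in HFD mice, with a log2 fold change of -0.54 (SE 0.10, limma's adjusted p = 0.00364). Its diets did not overlap. Nmnat3, the mitochondrial enzyme, was at 0.9 to 1.4 FPKM in normal and 0.9 to 1.6 in HFD mice, with an interval of -0.43 to 0.47 for the log2 fold change. Of the 9 other salvage and Preiss-Handler genes listed, 6 could be tested and only Nmnat1 was called (16.7%, against 33.1% of all genes). Pnp, Nmrk1, Naprt and Nadsyn1 had log2 fold changes between -0.21 and 0.09. Genes of phosphorylation, transport and removal of NAD (Nadk, Nadk2, Nnt, Slc25a51, Aox1, Nudt9 and Nudt12) gave 0 calls among 7, against 33.1% of all genes. Their log2 fold changes lay between -0.28 and 0.10, and 1 (Nadk2) had an unadjusted p below 0.05 from limma. The 8 genes listed for the kynurenine route were not matched to any of the 13996 genes and could not be tested. The study set aside genes averaging under 1 FPKM, and 13982 of the 13996 listed genes passed that filter here. Absence from the list may therefore go with low expression, which was not tested.

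Sarm1, which Nmnat2 normally holds in check (chromosome 11, 78472330 to 78497754, minus strand), was also higher in HFD mice. Its FPKM was 5.7, 5.7, 5.7 and 6.7 in normal mice and 7.5, 7.6, 8.2 and 6.6 in HFD mice. HFD mouse 4 lay just below normal mouse 4, so the groups overlapped. The log2 fold change was 0.32 (SE 0.08, 95% interval 0.13 to 0.51, limma's adjusted p = 0.0176). Without normal mice 2 and 3 it was 0.27 and limma's adjusted p was 0.114.

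The 4 listed partners of this axon degeneration pathway passed the test, as 33.1% of all genes did, with 3 higher and 1 lower. Mycbp2, part of the ubiquitin ligase that turns over Nmnat2, was higher (38.5 ± 1.56 FPKM in normal and 44.2 ± 1.72 in HFD mice, log2 fold change 0.20). The F-box protein of the same ligase, Fbxo45, was lower (19.1 ± 0.64 and 16.6 ± 0.287, SD, n = 4 per diet, log2 fold change -0.20). The kinases Map3k12 and Map3k13, which signal axon injury, were higher by 0.14 and 0.30 on the log2 scale. No values overlapped for these 4 genes (31.9% of all genes), and limma's adjusted p lay between 0.00756 and 0.0239. Their changes were all below 1.5 times. Map3k12 passed in 4 of 8 leave-one-out fits (not without normal mouse 1 or HFD mouse 1, 3 or 4, at limma's adjusted p from 0.05 to 0.0561) and the other 3 genes in 8 of 8. Without normal mice 2 and 3, Fbxo45 passed (limma's adjusted p = 0.0207) and Mycbp2 (0.0741), Map3k12 (0.0577) and Map3k13 (0.0752) did not, with log2 fold changes of 0.16, 0.16 and 0.25.

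**Figure D3:**
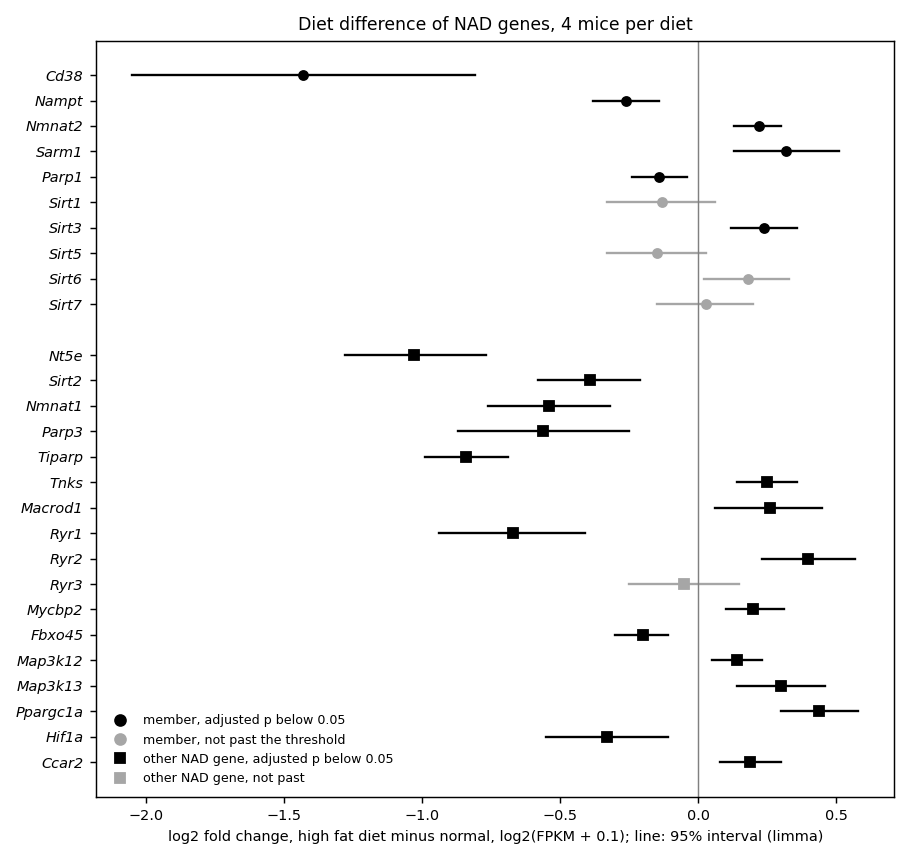
Log2 fold change (horizontal axis, HFD minus normal, on log2(FPKM + 0.1)) with its 95% interval from limma for the 10 genes (circles), 16 other NAD genes that were called and Ryr3 (squares). Black marks passed the adjusted threshold and grey marks did not; Cd38 (-1.43) and Nt5e (-1.03) lie furthest from 0, and Ppargc1a (0.44) is the highest.

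Sirt3, the main deacetylase of mitochondria (chromosome 7, 140863666 to 140882309, minus strand), was the only sirtuin of the 5 among the 10 genes that passed the test. Its FPKM was 34.9, 33.1, 30.3 and 34.6 in normal mice and 40.7, 38.2, 39.5 and 38.7 in HFD mice. The lowest HFD mouse stood above the highest normal mouse. The log2 fold change was 0.24 (SE 0.05, 95% interval 0.12 to 0.36, limma's adjusted p = 0.00815), and 0.18 without normal mice 2 and 3 (limma's adjusted p = 0.0361). With the cortical neuron markers as a covariate it was 0.11 (limma's adjusted p = 0.385). Those markers differ between the diets, so diet and marker level cannot be told apart. Summed cortical neuron markers were lowest in normal mice 3 and 2 (272 and 290 FPKM), and Sirt3 was lowest in these mice as well.

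Sirt6, a chromatin deacylase (chromosome 10, 81621785 to 81627797), was at 5.8, 5.5, 5.8 and 6.0 FPKM in normal mice and at 7.3, 6.4, 6.3 and 6.2 in HFD mice. The diets did not overlap, yet limma's adjusted p was 0.0788 for a log2 fold change of 0.18 (95% interval 0.02 to 0.33). Sirt1, the nuclear deacetylase linked to metabolism and the clock (chromosome 10, 63319005 to 63381704), was at 4.6, 5.3, 5.8 and 5.2 FPKM in normal mice and at 4.8, 5.0, 4.3 and 4.9 in HFD mice. Its log2 fold change of -0.13 had a 95% interval of -0.33 to 0.06. Sirt5, the mitochondrial desuccinylase (chromosome 13, 43365496 to 43395203), was at 7.9, 8.5, 9.3 and 7.9 FPKM on the normal diet and at 7.8, 8.2, 6.7 and 7.6 on the high fat diet (-0.15, interval -0.33 to 0.03). Sirt7, the nucleolar sirtuin (chromosome 11, 120618372 to 120625240), was at 15.1, 12.8, 15.6 and 15.5 FPKM on the normal diet and at 16.3, 14.8, 13.7 and 15.2 on the high fat diet (0.03, interval -0.15 to 0.20). For Sirt1, Sirt5 and Sirt7 the diets overlapped, and the intervals leave room for changes in either direction.

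Sirt2, the cytosolic deacetylase that is abundant in myelin, was the most abundant sirtuin per transcript length and was lower in HFD mice. It was at 60.6, 63.0, 59.9 and 49.1 FPKM in normal mice and at 44.3, 42.5, 48.7 and 41.0 in HFD mice. The diets did not overlap by a narrow margin, and the log2 fold change was -0.39 (SE 0.08, limma's adjusted p = 0.00726), or -0.31 without normal mice 2 and 3 (limma's adjusted p = 0.0569). Normal mouse 4 had the lowest oligodendrocyte marker sum of its diet (2149 FPKM) and HFD mouse 3 the highest of its own (2048), and the same mice held the lowest and the highest Sirt2 of their diets. Given the oligodendrocyte markers as a covariate, Sirt2 differed by 0.03 on the log2 scale (SE 0.09, limma's adjusted p = 0.917). Only 6 of all 13982 genes were called with that covariate, and the median standard error was 2.14 times its value without one. These markers differ between the diets, so diet and marker level cannot be told apart for Sirt2. Sirt4, a mitochondrial sirtuin of low level (4.35 ± 0.854 and 5.33 ± 0.340 FPKM, SD, n = 4 per diet), had a log2 fold change of 0.31 and did not pass.

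**Figure D4:**
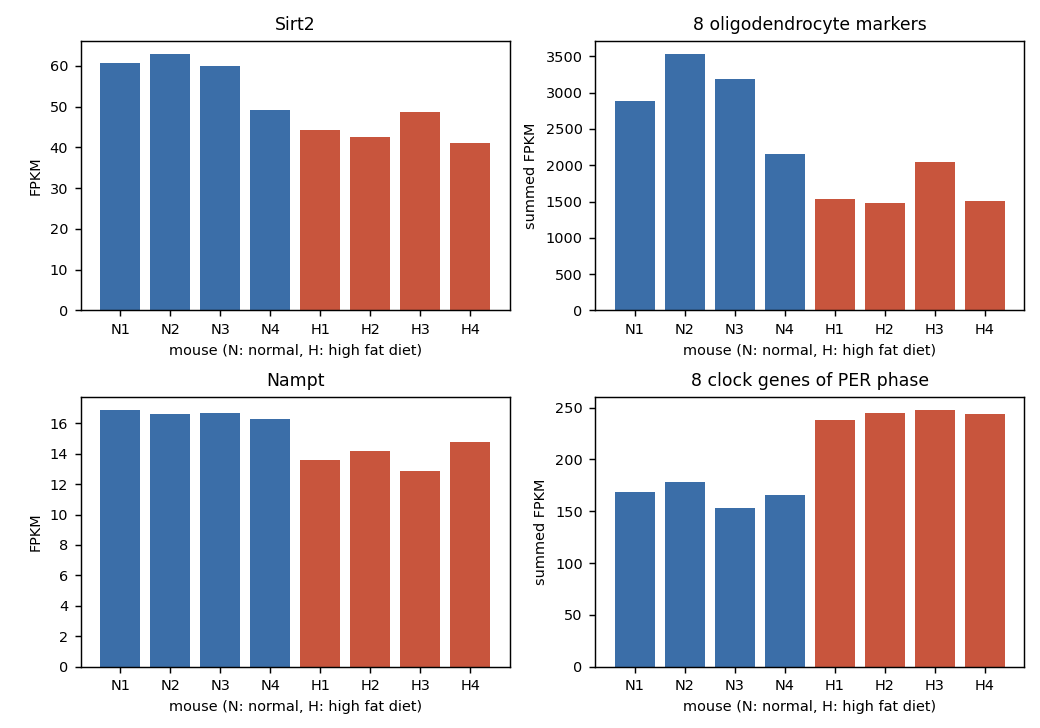
FPKM of Sirt2 and Nampt (left) beside the summed FPKM of 8 oligodendrocyte markers and of 8 clock genes of the PER phase (right), 1 bar per mouse, all axes from 0, normal in blue and high fat diet in red. Sirt2 is lowest in normal mouse 4 (49.1) within its diet, where the marker sum is also lowest (2149), and Nampt is at most 14.8 FPKM in the HFD mice, where the clock sum is at least 238.

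Of the listed genes, 10 were given as substrates and partners of sirtuins, and 3 were called (30%, against 33.1% of all genes). Ppargc1a, the coactivator of mitochondrial biogenesis that Sirt1 deacetylates, was at 9.0, 9.9, 8.7 and 9.9 FPKM in normal mice and at 13.2, 12.9, 13.1 and 11.9 in HFD mice. Without overlap between diets, its log2 fold change was 0.44 (SE 0.06, limma's adjusted p = 0.00141), and it was 0.43 without normal mice 2 and 3. Ccar2, an inhibitor of Sirt1, was higher (26.1 ± 1.34 and 29.8 ± 0.785 FPKM, SD, n = 4, log2 fold change 0.19), but did not pass without these mice (0.16, limma's adjusted p = 0.0505). Hif1a, the hypoxia factor, was lower, at 24.9, 31.0, 32.9 and 25.4 FPKM in normal and 20.3 to 24.1 in HFD mice (log2 fold change -0.33, limma's adjusted p = 0.0273). It too was highest in normal mice 2 and 3, and without them its log2 fold change was -0.16 (limma's adjusted p = 0.152). It passed in 3 of 8 leave-one-out fits, those without normal mouse 1, normal mouse 4 or HFD mouse 4. The mitochondrial Sirt3 substrates Sod2 (log2 fold change -0.11), Idh2 (0.10) and Glud1 (-0.02) did not pass.

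Parp1, the main poly(ADP-ribose) polymerase of the DNA damage response (chromosome 1, 180568924 to 180601254, plus strand, 23 merged exons), was slightly lower in HFD mice. Its FPKM was 30.1, 30.2, 28.2 and 30.5 in normal mice and 27.1, 26.1, 26.7 and 27.9 in HFD mice. The groups were separate by a narrow margin. The log2 fold change was -0.14 (SE 0.04, 95% interval -0.24 to -0.04) with an adjusted p of 0.0337 from limma, and the call held in only 2 of 8 leave-one-out fits, those without normal mouse 3 or HFD mouse 4.

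Of 20 other genes that add or remove ADP-ribose, 16 could be tested, 2 were called higher and 2 lower (25%, against 33.1% of all genes). Tiparp, a mono-ADP-ribosyltransferase induced by the aryl hydrocarbon receptor, was at 9.2, 9.6, 8.5 and 8.9 FPKM in normal mice and at 5.2, 5.2, 4.6 and 5.1 in HFD mice. The normal mice were tight and far above the other diet, and the log2 fold change of -0.84 (SE 0.07) had the lowest adjusted p of the NAD genes tested (0.00014 from limma). It was also -0.84 without normal mice 2 and 3. Parp3 was lower (1.68 ± 0.222 and 1.10 ± 0.0816 FPKM, SD, n = 4, log2 fold change -0.56, or -0.35 with an added constant of 1). Without normal mice 2 and 3 Parp3 did not pass (-0.46, limma's adjusted p = 0.0867). Tankyrase Tnks was higher (11.8 ± 0.499 and 14.0 ± 0.377 FPKM, SD, n = 4, log2 fold change 0.25, limma's adjusted p = 0.00559), while its paralog Tnks2 (log2 fold change -0.14) did not pass. Macrod1, a mono-ADP-ribosyl hydrolase, was called higher (log2 fold change 0.26, limma's adjusted p = 0.0465) but passed in only 1 of 8 leave-one-out fits, the one without normal mouse 3, and not after median-ratio rescaling (limma's adjusted p = 0.0503).

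In all, 52 of the 69 other NAD genes listed could be tested, and 8 were higher and 8 lower. That is 30.8% of them, near the 33.1% of all genes. The 36 that did not pass had log2 fold changes between -0.48 and 0.31. Those that changed by more than 1.5 times were Nt5e, Tiparp and Ryr1, all lower. With an added constant of 1, Ryr1 (log2 fold change -0.45) was below 1.5 times. The median log2 fold change of the 52 was -0.03. Nt5e and Tiparp also passed with the cerebellar and with the cortical neuron markers as a covariate (limma's adjusted p between 0.0155 and 0.045), and neither did with the oligodendrocyte markers.

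Promoter sequence was examined for the E-box CACGTG, the motif bound by CLOCK-BMAL1, because clock genes differed between the diets. RefSeq promoter windows on GRCm38.p6 were matched for 10 of 10 genes, with a pair of starts each for Sirt3 and Sirt6, and the 250 bases before each RefSeq start were searched. For Cd38, Sirt7 and 1 start each of Sirt3 and Sirt6, bases 120 to 21 before the start lie wholly in the gene's own annotated exons. In Nmnat2 88 of these 100 bases do, and in Sirt5 19. For these genes the search therefore covered transcribed sequence in part. The motif reads the same on both strands. It was found for 2 of the 10 genes, Sirt1 and Parp1, and for 6.86% of the 27025 genes in the same RefSeq set. In Sirt1 it begins 115 and 43 bases before the start, and in Parp1 49 bases before it. The 100 bases from 120 to 21 before the start are shown for both and for Nampt, the member with the best known link to the clock, on the strand of each gene, with the E-box in capitals. These windows lie at chr10:63339056-63339155 (minus strand), chr1:180568771-180568870 (plus strand) and chr12:32820215-32820314 (plus strand), outside the annotated exons of their own genes. The first and the last of them fall inside the span of the gene, since other annotated transcripts of Sirt1 and Nampt start further upstream.
Sirt1: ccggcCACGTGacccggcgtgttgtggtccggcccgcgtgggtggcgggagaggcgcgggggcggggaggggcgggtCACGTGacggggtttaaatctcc
Parp1: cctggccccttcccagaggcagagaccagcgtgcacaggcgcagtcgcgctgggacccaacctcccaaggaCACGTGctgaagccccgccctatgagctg
Nampt: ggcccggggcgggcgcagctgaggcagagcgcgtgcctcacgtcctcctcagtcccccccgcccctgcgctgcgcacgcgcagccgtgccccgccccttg
The Nampt window held no CACGTG in these letters. Of the genes with a match, Parp1 was lower on the high fat diet and Sirt1 did not pass the test. A match is a description of the sequence.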

How the data were processed

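Per the labels and the methods of the study, the authors sequenced rRNA-depleted RNA (Ribo-Zero Gold, TruSeq Stranded Total RNA, paired-end Illumina), trimmed reads with Trimmomatic, aligned them with STAR to mm10 and computed FPKM with Cuffnorm on GENCODE M17 basic genes. No tool version is given in the sources used here. The deposited FPKM values are rounded to 0.1, and 13996 genes are listed; read depth is unknown, so no counting error can be given. FPKM summed to 562431 to 639142 per mouse.

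Genes with a mean of at least 1 FPKM and no 0 were compared on log2(FPKM + 0.1) with limma 3.58.1 (R 4.3.3; empirical Bayes with a mean trend), 4 against 4 mice, and Benjamini-Hochberg adjustment. The procedure was tested on simulated data with noise drawn independently for each gene. Those data lack the marker differences between the diets, so the test does not cover them. Coordinates come from GENCODE M21 on GRCm38, promoters from RefSeq. The genes and lists were chosen with earlier results of these data known. Described in full are the 10 genes, and of 69 other NAD genes those that were called, Ryr3 and, with fewer values, other members of each list. The 5 genes nearest to Cd38 were those with the smallest root mean square difference of centred log2 levels. Alternatives were added constants of 0.5 and 1, another low-value filter or none, median-ratio rescaling, quantile normalization, no trend, a replicate block, each mouse left out, and marker lists as covariates.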

Additional observations from a re-analysis of the deposited data

Results flagged for a closer look

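Values that stood apart from the other 3 mice of their diet by Dixon's ratio were found in 4 of the 54 sets of mice screened (27 genes in each diet), where chance gives about 1 in 20. Sarm1, the NAD-cleaving axon enzyme, was at 6.7 FPKM in normal mouse 4 and at 5.7 in each of the others. Ryr3 was at 6.0 FPKM in the same mouse and at 7.1 to 7.3 in the other normal mice. Nmnat1, the nuclear NAD synthase, was at 3.8 FPKM in HFD mouse 1 against 3.0 to 3.1. Tiparp was at 4.6 FPKM in HFD mouse 3 against 5.1 to 5.2. For Nmnat1 and Tiparp the values still lay below every normal mouse. Sarm1 is the one for which the outlying mouse made the diets overlap, at 6.7 in normal mouse 4 and 6.6 in HFD mouse 4.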

How the results depend on the processing

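Leaving out 1 mouse at a time gave 3 of the 10 genes higher in each fit and 2 to 3 lower, with Parp1 the one lost; among all genes 3295 to 4619 were called against 4626. Sirt7 (-0.04 to 0.07) and Ryr3 (-0.12 to 0.01), which did not pass the test, changed sign in some of these fits. At a mean FPKM of at least 5, Cd38 and Sirt1 were not tested and 33 of the 52 other NAD genes were; 4 of these were lower in place of 8, since Nt5e, Nmnat1, Parp3 and Ryr1 were not tested. With added constants of 0.5 or 1, median-ratio rescaling or quantile normalization, 3 of the 10 genes were higher and 3 lower, as before, but the constants took Cd38 from -1.43 to -1.09 and -0.84 and Nt5e from -1.03 to -0.84 and -0.68, and median-ratio rescaling ended the call on Macrod1 (limma's adjusted p = 0.0503). Without the mean trend, Parp1 did not pass (limma's adjusted p = 0.0568). Equal mouse numbers did not pair the libraries (correlation of same-numbered deviations -0.109 to -0.028), and with the replicate block 2 of the 10 genes were higher, 2 lower and 3390 genes were called in all, with Parp1 (limma's adjusted p = 0.076) and Sarm1 (0.061) not passing.

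Marker covariates ended the calls on the 10 genes. With the cerebellar markers, 0 were higher and 0 lower, 1 and 2 of the other NAD genes were, and 439 genes were called; Sirt1 (0.11), Sirt5 (0.03), Sirt7 (-0.05) and Hif1a (0.02) changed sign. With the oligodendrocyte markers, 0 of the 10 and 0 of the other NAD genes passed in either direction and 6 genes were called; Sirt7 (-0.24), Sirt2 (0.03) and Ryr3 (0.01) changed sign. In the following settings, added after seeing the data, the cortical neuron markers left 0 of the 10 genes higher or lower, 0 other NAD genes higher, 2 lower and 509 genes called, with Sirt1 (0.06), Sirt5 (0.05), Hif1a (0.04) and Ryr3 (0.12) changing sign. At an unadjusted p below 0.05, 3, 1 and 3 of the 10 genes passed with the cerebellar, oligodendrocyte and cortical neuron covariates. Of all 13982 genes, 3203, 1932 and 3199 did. The median standard error grew to 1.71, 2.14 and 1.6 times its value without a covariate, and the markers differ between the diets, so diet and marker level cannot be told apart here. Without normal mice 2 and 3, 2 of the 10 genes were higher and 3 lower, 5 other NAD genes were higher, 2743 genes were called, Sirt7 (-0.03) changed sign and Ryr3 was at 0.00.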

Other observations

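Nnt, the mitochondrial transhydrogenase that links NADH to NADPH, varied within each diet more than nearly any other gene. It was singled out after its values were seen. Its FPKM was 2.1, 0.6, 4.1 and 3.5 in normal mice and 4.5, 2.6, 1.2 and 1.3 in HFD mice. The within-diet SD of its log2 level was 1.03, above that of 99.7% of the 13982 genes tested, whose median was 0.121. The diets overlapped, with a log2 fold change of -0.01 (SE 0.58, limma's adjusted p = 0.991). Cd38 was also variable within diets, with a log2 SD of 0.439 that exceeded 96.2% of genes, through its normal mice.

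The choroid plexus markers varied likewise between single mice. Summed, they spanned 342 to 724 FPKM on the normal diet and 22.1 to 943 on the high fat diet, and 1 of 4 was called lower. Blood markers summed to 239 to 480 FPKM in normal and 199 to 247 in HFD mice, and 5 of 5 were lower. Astrocyte markers overlapped in their sums (1168 to 1308 and 1162 to 1232 FPKM), with 1 of 7 higher and 2 lower. Endothelial markers summed to 79.6 to 88.2 and 72.3 to 80.9 FPKM, with 1 of 6 higher and 2 lower. Among all genes, 17.7% were called higher and 15.3% lower.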
